A study of Mus musculus with 20 samples.

Results

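Right atria of mice heterozygous for the G125R missense allele of Tbx5 (called Tbx5G125R) were compared with right atria of control mice without the allele (Control, headed WT in the tables). The libraries were chosen by the tissue and the genotype that the labels give, which took 10 of the 20 libraries of the series, 5 of each genotype. The mice were female and 8 to 12 weeks old, and whole right atria were used, with no treatment named in the labels. The allele was made in the germline with CRISPR-Cas9, so that all cells of a heterozygote carry 1 mutant and 1 normal copy. The study states that the right atrial tissue included the sinoatrial node. The other 10 libraries are left atria of the same genotypes and serve here as a second measurement. Each value is a normalized count, which is the number of reads of a gene divided by a size factor of its library. Of 33446 genes in the right atrium table, 14288 averaged 10 or more normalized counts and were tested, and a gene is called higher or lower at an adjusted p under 0.05.

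Tbx5 is a T-box transcription factor that binds DNA through its T-box domain and acts with Gata4 and Nkx2-5 on genes of the atrial muscle and of the conduction system. In humans, TBX5 variants cause Holt-Oram syndrome, with malformed upper limbs, septal defects and disturbed atrioventricular conduction. The right atrium holds atrial muscle, which conducts quickly and contracts on calcium released from the sarcoplasmic reticulum, and the sinoatrial node, the pacemaker of the heart, with fibroblasts, vessels, nerves, endocardium and resident immune cells.

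The right atrium libraries held 17.5 to 26.8 M reads each, and reads of the mitochondrial rRNA genes took 7.28% to 15.7% of them. The first principal component of the tested genes carried 33.9% of the variance and placed all Tbx5G125R libraries at positive and all Control libraries at negative scores. Control 5 lay apart on the second component (21.0%) and Tbx5G125R 1 on the third (12.2%). A read was found for 19834 to 20592 genes in Tbx5G125R right atria and for 18963 to 19942 genes in Control right atria, and the part of this difference in the results was not tested. Because the samples are whole tissue, fewer cells of a type and less RNA per cell cannot be told apart.

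The level of Tbx5 (ENSMUSG00000018263, chromosome 5, 119832668 to 119885219 in GRCm38) gave no difference between genotypes that passed the test. Tbx5 had 5344, 6778, 6296, 5786 and 6559 normalized counts in Tbx5G125R right atria 1 to 5, against 5087, 5584, 5319.7, 7198 and 7375 in Control right atria 1 to 5, which gives 0.02 ± 0.11 (± SE) as log2 fold change and 0.937 as adjusted p. Values of single libraries stand in the order 1 to 5 here and below. The labels do not say whether libraries with the same number are related. The genotypes overlapped over most of their range. The tables do not separate the mutant from the normal copy, so the RNA level does not check the labels of a missense allele. Among the 7 tested members of the T-box family only Tbx20, a repressor and activator of working myocardium, was called. Tbx20 had 18124, 22457, 24645, 17891 and 22263 normalized counts in Tbx5G125R right atria, against 15148, 14161, 13721, 13521 and 11971 in Control right atria (0.61 ± 0.10, adjusted p 0.00272), with each Tbx5G125R library above each Control library. Tbx3 and Tbx18, which act in the development of the sinoatrial node, had log2 fold changes of -0.36 ± 0.23 and -0.50 ± 0.17 with adjusted p of 0.396 and 0.104. Tbx2 (-0.33 ± 0.13), Tbx6 (0.40 ± 0.28) and Mga (0.15 ± 0.09) were not called either.

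In Tbx5G125R right atria 442 genes were called higher (3.09% of those tested) and 448 lower (3.14%), together 890 (6.23%). The higher genes had the larger changes. A change of at least 2-fold was found for 128 of the higher and 59 of the lower genes, and one of at least 4-fold for 35 of the higher and 7 of the lower genes. Changes under 1.5-fold made up 178 of the higher and 276 of the lower calls. The genotypes did not overlap in 359 of the higher and 364 of the lower genes, read against 7.36% of all tested genes without overlap. The share of called genes was 4.01% at mean levels of 10 to 50 normalized counts and 8.39% at means of at least 5000. These were 69 higher and 32 lower genes at means of 10 to 50, and 14 higher and 33 lower at means of at least 5000. The part of level in the larger changes of the higher genes was not tested. Leaving out each library in turn kept 279 of the higher and 233 of the lower calls in every case. The count of lower genes was 292 without Tbx5G125R 3, 293 without Control 2 and 279 without Control 3, and a fit of all 4 groups with a shared spread called 180 higher and 112 lower.

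**Figure D1:**
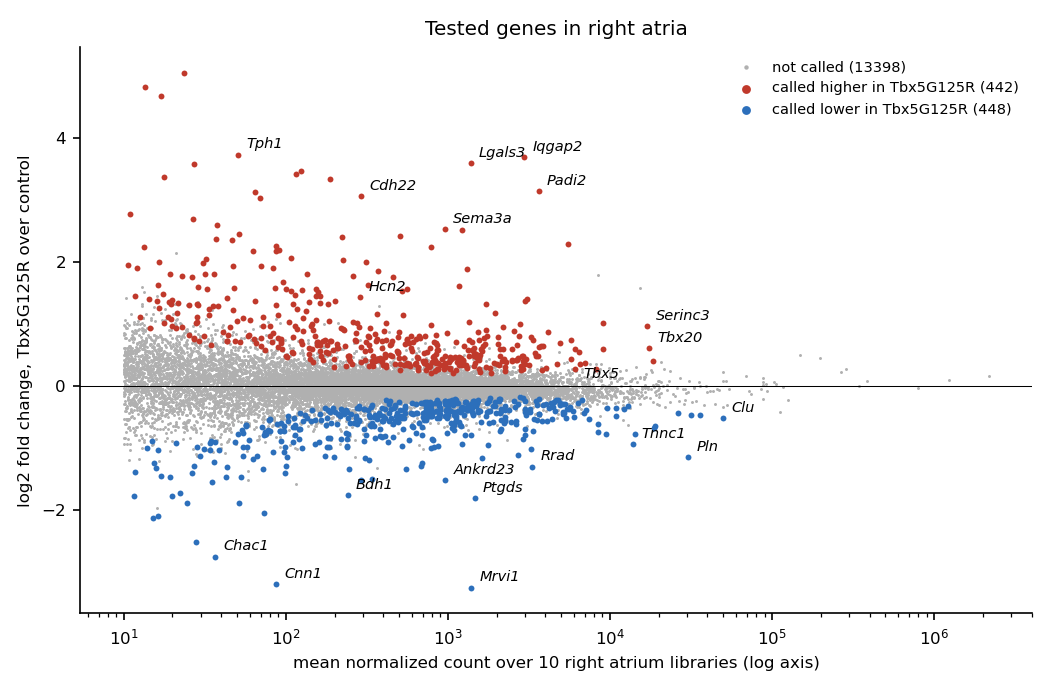
Mean normalized count over the 10 right atrium libraries (x axis, log scale) and log2 fold change of Tbx5G125R over Control (y axis) of 14288 tested genes, 1 point a gene, with the 442 higher calls in red, the 448 lower calls in blue and the other genes in grey. Tph1, Iqgap2, Lgals3 and Padi2 lie above 3 on the log2 scale and Mrvi1 and Cnn1 below -3, while Tbx5 lies near 0.

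T-box factors recognise the letters AGGTGT in DNA, and these were searched on both strands (AGGTGT or ACACCT) in RefSeq promoter windows of GRCm38.p6 that run 250 bases before to 50 after a gene's start. A gene was counted if any of its windows held the letters. Of genes with a window, 41 of 306 called higher (13.4%), 47 of 302 called lower (15.6%) and 1283 of 9788 tested (13.1%) held them. The letters GGGCGG or CCGCCC of Sp and KLF factors stood in 66.0% of the higher, 66.9% of the lower and 67.4% of all tested genes with a window. Among the 20 largest decreases, 1 of 14 with a window held the T-box letters (7.14%). Among the 20 largest increases named below, 17 had a window, and 2 of these (11.8%), Hydin and Lxn, held the T-box letters. The stretches around them are shown because these promoters belong to genes that rose many-fold, and capitals mark the T-box letters. The Hydin stretch is chr8:110266727-110266808 on the plus strand, with the first capital 221 bases before the start, and the Lxn stretch is chr3:67463980-67464079 on the minus strand, with the first capital 125 bases before the start.
Hydin: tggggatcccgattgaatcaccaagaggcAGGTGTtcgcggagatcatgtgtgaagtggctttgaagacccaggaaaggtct
Lxn: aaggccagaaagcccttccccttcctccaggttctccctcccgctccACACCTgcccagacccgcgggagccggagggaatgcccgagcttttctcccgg
A match of 6 letters is a description of the sequence, and binding was not measured in these files.

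The largest increases included scaffold, lectin, enzyme and neuronal genes with low or moderate levels in Control atria. Iqgap2 (ENSMUSG00000021676, chromosome 13), a scaffold of the actin cytoskeleton, had 4706, 6548, 5331, 6034 and 4818 normalized counts in Tbx5G125R right atria, against 488, 326, 385, 486 and 446 in Control right atria, 12.9-fold higher (adjusted p 2.14e-09). Lgals3, which encodes the sugar-binding galectin-3, had 2390.1, 2915, 2490.0, 2085 and 2884 in Tbx5G125R right atria, against 157, 218, 245, 177 and 270.2 in Control right atria (12.1-fold higher, adjusted p 1.42e-08). The lowest Tbx5G125R library of either gene stood far above the highest Control library. Padi2, an enzyme that turns arginine of proteins into citrulline, had 5214, 7759.8, 6232, 8283 and 5218 in Tbx5G125R right atria, against 937, 561, 705, 827 and 659 in Control right atria (8.83-fold higher). Tph1, the rate-limiting enzyme of serotonin synthesis outside the brain, had 87.1, 86.3, 93.8, 91.7 and 114 in Tbx5G125R right atria, against 7.62, 2.75, 5.05, 8.43 and 9.22 in Control right atria (13.3-fold higher, adjusted p 2.61e-06). In Control atria Tph1 stayed under 10 normalized counts in each library, and Tbx5G125R 5 was its highest library.

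Neuronal adhesion and guidance genes were among the same large increases. Nfasc, the adhesion protein neurofascin of axon initial segments and nodes of Ranvier, had 308, 341, 320.4, 298 and 424 normalized counts in Tbx5G125R right atria, against 32.4, 23.8, 21.5, 67.4 and 30.4 in Control right atria (10.1-fold higher). Cdh22, a cadherin, had 411, 551, 571, 501 and 584 in Tbx5G125R right atria, against 71.4, 73.3, 49.3, 72.7 and 46.1 in Control right atria (8.35-fold higher). Sema3a, a secreted ligand that repels growing axons, had 1225, 1901, 1772, 1747 and 1551 in Tbx5G125R right atria, against 360.1, 223, 251, 287 and 294 in Control right atria (5.78-fold higher). Control 4 was the highest Control library for Nfasc, and the absence of overlap between genotypes follows from the choice of genes. Myt1l, a zinc finger factor of neurons, rose by 3.13 ± 0.24 on the log2 scale, Fam189a1 by 3.02 ± 0.31, and Neto2, a partner protein of kainate-type glutamate receptors, by 2.41 ± 0.14.

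The next 10 increases ran from 5.3-fold for Hydin to 3.73-fold for Tnni2. Hydin, a component of the central apparatus of motile cilia, had 236, 465, 395, 488 and 284 normalized counts in Tbx5G125R right atria, against 61.9, 58.6, 85.9, 51.6 and 83.9 in Control right atria (adjusted p 1.46e-05). Tbx5G125R 1 and Tbx5G125R 5 were its lowest Tbx5G125R libraries. Rarres1, a retinoid-responsive gene of the latexin family, had 127, 162, 168, 139.8 and 117 in Tbx5G125R right atria, against 35.2, 25.6, 29, 31.6 and 31.4 in Control right atria (4.53-fold higher, adjusted p 1.19e-06). Lxn, which encodes latexin, an inhibitor of carboxypeptidases, had 284, 364, 343, 491 and 340.3 in Tbx5G125R right atria, against 97.2, 69.6, 68.2, 91.7 and 119.9 in Control right atria (4.07-fold higher, adjusted p 1.18e-05). These genes are neighbours on chromosome 3. Drd2, the dopamine D2 receptor, had 70.9, 118, 88.5, 118 and 119 in Tbx5G125R right atria, against 21, 20.1, 13.9, 25.3 and 31.4 in Control right atria (4.5-fold higher). Nat8l, the enzyme of N-acetylaspartate synthesis, rose 4.72-fold, and Rab3b, a GTPase of regulated exocytosis, 4-fold. Slc8a3, a sodium-calcium exchanger, rose 3.8-fold, Prrg4 4.16-fold and Trac, the constant chain of the T cell receptor alpha, 4.78-fold. The 20 increases were called in every fit that left out 1 library.

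**Figure D2:**
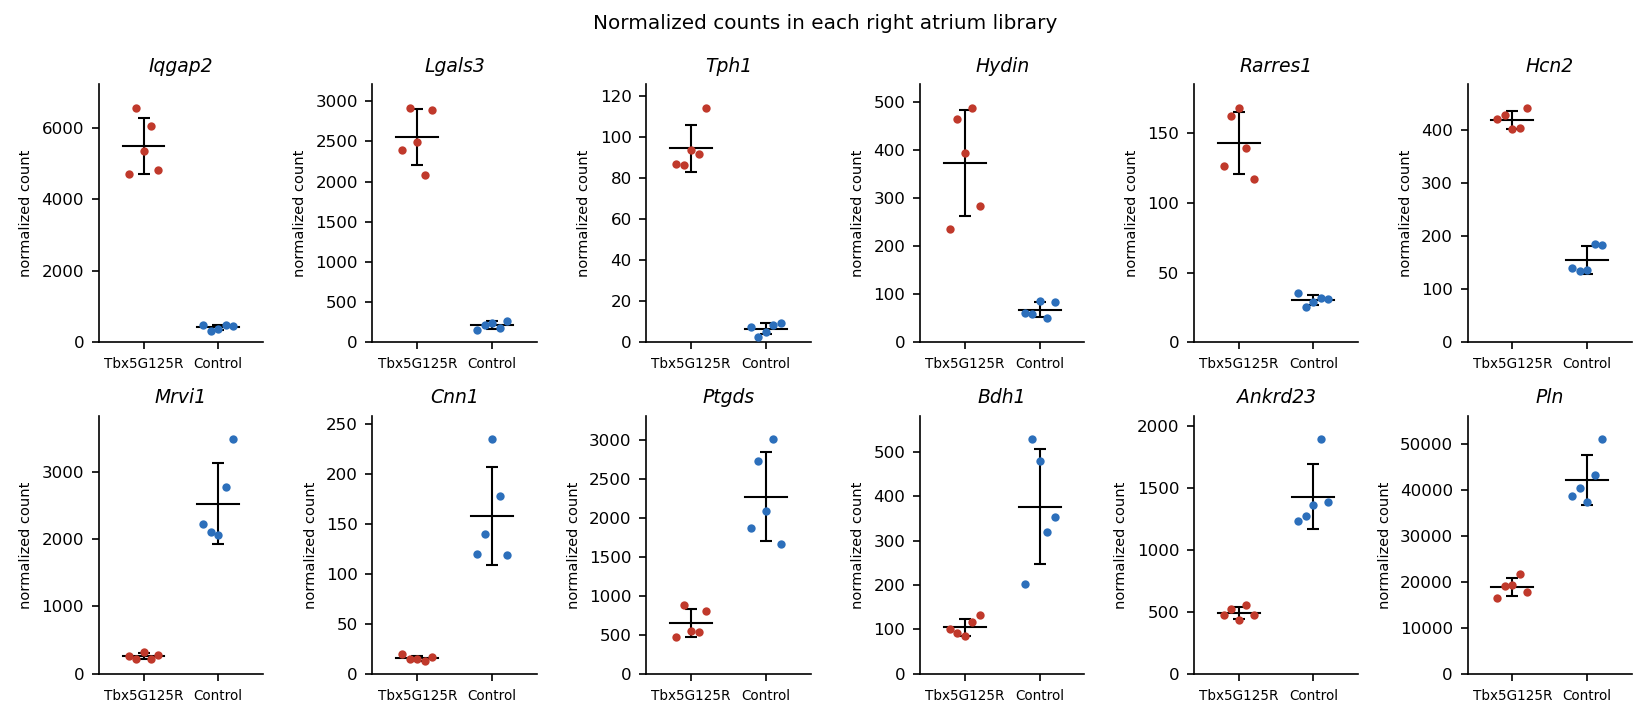
Normalized counts (y axis, from 0) of 12 genes in each right atrium library, with Tbx5G125R in red on the left and Control in blue on the right of each panel; lines are the mean and bars the SD of 5 libraries. The upper 6 genes were higher and the lower 6 lower in Tbx5G125R, and in no panel did a Tbx5G125R library meet a Control library. All but Hcn2 were chosen among genes without overlap, so for them this follows from the choice.

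The 20 decreases were chosen in the same way, so the absence of overlap in them again follows from the choice. The largest of them included genes of cyclic GMP signalling, smooth muscle and metabolism. Some called genes outside this choice, such as Chac1 (-2.76) and Myl2 (-2.06 on the log2 scale), fell more than Rps6ka6, Ptgds and Bdh1. Mrvi1 (ENSMUSG00000005611, chromosome 7), which encodes the substrate of cyclic GMP kinase that sits on the inositol trisphosphate receptor and restrains calcium release, had 266, 216, 323, 220.2 and 276 normalized counts in Tbx5G125R right atria, against 2221, 2098, 2064, 2765 and 3475 in Control right atria, 9.57-fold lower (adjusted p 4.4e-08). Cnn1, the smooth muscle protein calponin 1, had 19.8, 14.6, 15, 13.1 and 16.8 in Tbx5G125R right atria, against 120.0, 140.1, 235, 178 and 119 in Control right atria (9.21-fold lower, adjusted p 8.77e-07). The Control libraries of either gene varied more than the Tbx5G125R ones and stayed well above them. Ptgds, a prostaglandin D synthase, had 471, 882, 552, 543 and 813 in Tbx5G125R right atria, against 1872, 2738, 2089, 3008 and 1671 in Control right atria (3.5-fold lower). Bdh1, the mitochondrial enzyme that interconverts the ketone bodies acetoacetate and 3-hydroxybutyrate, had 99.9, 91.9, 85.9, 116 and 132 in Tbx5G125R right atria, against 203, 527, 479, 318 and 353 in Control right atria (3.41-fold lower, adjusted p 0.000316). Control 1 was the lowest Control library of Bdh1. Rps6ka6, a kinase of the RSK family, fell by 1.89 ± 0.25 on the log2 scale.

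Stress kinases, a titin-binding protein and a calcium channel brake followed. Ankrd23, an ankyrin repeat protein that binds titin and responds to stretch, had 478, 523, 434, 560.0 and 473 normalized counts in Tbx5G125R right atria, against 1236, 1277, 1365, 1895 and 1391 in Control right atria (2.87-fold lower, adjusted p 2.92e-06). Mapk10, the stress kinase JNK3, had 163, 165, 222, 169 and 168 in Tbx5G125R right atria, against 558, 440.5, 439.5, 485 and 597 in Control right atria (2.83-fold lower). Mapt, the microtubule protein tau, had 242, 359, 319, 391 and 270.3 in Tbx5G125R right atria, against 747, 822, 842, 774 and 793 in Control right atria (2.55-fold lower). Control libraries of Mapt lay close together, whereas those of Tbx5G125R differed more among themselves. Rrad, a small GTPase that holds back L-type calcium channels, had 1500.0, 1241, 1721, 2901 and 2294 in Tbx5G125R right atria, against 3166, 5910.2, 5763, 4622 and 3935 in Control right atria (2.47-fold lower, adjusted p 0.0032). Its groups nearly met, at Tbx5G125R 4 and Control 1. Hamp2, a hepcidin, fell by 1.41 ± 0.21 on the log2 scale, Wisp1, a secreted matricellular protein, by 1.30 ± 0.12, Uts2d, a urotensin peptide, by 1.30 ± 0.21, and Fhad1 and Trim67 by 1.35 ± 0.18 and 1.20 ± 0.13. Of the 20 decreases, Arxes2 (-1.47 ± 0.34) and Mapk4 (-1.14 ± 0.25) were the ones that lost the call with a library left out. The adjusted p of Arxes2 was 0.0535 without Tbx5G125R 2, 0.0596 without Control 3 and 0.0521 without Control 4, and that of Mapk4 was 0.0509 without Tbx5G125R 3 and 0.0513 without Control 3.

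The largest differences in counts, beside those of Padi2 and Iqgap2, were found in genes that are abundant in the atrium. Pln, the phospholamban that inhibits the calcium pump of the sarcoplasmic reticulum, had 16436, 19057, 19367, 21614 and 17848 normalized counts in Tbx5G125R right atria, against 38589.6, 40255, 37242, 43197 and 50898 in Control right atria (2.22-fold lower, adjusted p 1.98e-05). Tnnc1, the cardiac troponin C that senses calcium on the thin filament, had 9787, 10043, 8817, 9493 and 9072 in Tbx5G125R right atria, against 15311, 16485, 18255, 21507 and 19527 in Control right atria (1.92-fold lower, adjusted p 3.79e-05). Neither gene overlapped between genotypes. Des, the intermediate filament desmin, fell by 0.68 ± 0.11 on the log2 scale, Igfbp5, a binding protein of insulin-like growth factors, by 0.65 ± 0.13, Slc8a1, the main cardiac sodium-calcium exchanger, by 0.44 ± 0.09 and Ivns1abp by 0.78 ± 0.07. Clu, the secreted chaperone clusterin, Bmp10, a BMP ligand of atrial muscle, and Lpl, the lipoprotein lipase, were called at -0.52 ± 0.12, -0.48 ± 0.12 and -0.47 ± 0.11. The adjusted p of Clu was 0.0527 without Tbx5G125R 4. That of Bmp10 was 0.0765 without Tbx5G125R 3, 0.061 without Tbx5G125R 5, 0.0779 without Control 2 and 0.0758 without Control 3. That of Lpl was 0.0628 without Tbx5G125R 4 and 0.0612 without Control 2. In the other direction, Serinc3, a membrane protein known to restrict retroviruses, had 19655, 23445, 22993, 23086 and 23318 in Tbx5G125R right atria, against 11902, 11699.5, 11395, 10932 and 11668 in Control right atria (0.96 ± 0.07, adjusted p 2.92e-06). Tmx4, a thioredoxin-like protein of the endoplasmic reticulum, rose by 1.01 ± 0.08 on the log2 scale, Fhl2 by 0.73 ± 0.09, Cilp2 by 1.40 ± 0.16 and Itm2b by 0.39 ± 0.07. Gja5, the fast-conducting atrial gap junction protein connexin 40, had 9999.6, 13322, 10339.7, 10227 and 10501 in Tbx5G125R right atria, against 7370.4, 5989.9, 5600.1, 7965 and 9512 in Control right atria (0.60 ± 0.13, adjusted p 0.019, and 0.0532 without Control 2).

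Calcium handling genes changed in both directions. The lists of genes used from here on hold genes that the study named from these samples, so their counts are not independent evidence. Each count is to be read against the share of all tested genes, of which 3.09% were called higher, 3.14% lower and 6.23% in either direction. Of 19 tested genes of calcium entry, 2 were higher and 6 lower (42.1% called), with a median log2 fold change of -0.28, beside -0.01 over all tested genes. Cacna1d, the L-type channel of pacemaker and atrial cells, had 155, 190.5, 186, 159.9 and 153 normalized counts in Tbx5G125R right atria, against 328, 300.4, 326, 358 and 227 in Control right atria (-0.85 ± 0.12, adjusted p 0.000977). The auxiliary subunits went opposite ways, with Cacnb4 at 1.10 ± 0.18 and Cacna2d3 at -0.52 ± 0.10. The count of lower members was 3 without Tbx5G125R 1 or Tbx5G125R 5, and that of higher members was 1 without any of the libraries other than Tbx5G125R 1 and Control 3. Of 16 genes of calcium release and storage 2 were lower (12.5% called), namely Casq1, the calsequestrin of fast skeletal muscle (-0.98 ± 0.15), and Ryr3, a ryanodine receptor. Ryr3 had 993, 2086, 1971, 1649 and 1892 in Tbx5G125R right atria, against 3589, 4725, 4213, 3731 and 2329.7 in Control right atria (-1.12 ± 0.21, adjusted p 0.00627), and Tbx5G125R 1 was its lowest library.

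Of 12 genes of calcium uptake and removal 2 were higher and 2 lower (33.3% called, median 0.06). Atp2a1, the fast skeletal calcium pump, had 166, 224, 230.1, 328 and 114 normalized counts in Tbx5G125R right atria, against 62.9, 47.6, 54.3, 87.5 and 41.5 in Control right atria (1.80 ± 0.26, adjusted p 0.00099), whereas Pln and Slc8a1 were lower, as given above. Ppp1r1a, the protein phosphatase inhibitor 1, was called at 0.79 ± 0.18 and had an adjusted p of 0.0504 without Tbx5G125R 4 and 0.059 without Tbx5G125R 5, which left 1 higher gene. Of 24 genes of inositol trisphosphate and cyclic GMP signalling 2 were higher and 5 lower (29.2% called, median -0.17). Beside Mrvi1, Plce1, a phospholipase C, was lower (-0.50 ± 0.08) and Gucy1b3, a subunit of the nitric oxide receptor guanylate cyclase, was lower (-0.45 ± 0.10), while Plcb1, another phospholipase C, was higher (0.60 ± 0.13). Pde3a and Pde2a, phosphodiesterases of cyclic nucleotides, were called at -0.27 ± 0.06 and 0.29 ± 0.06. The lower count was 3 without Tbx5G125R 4, where the adjusted p of Pde3a was 0.0528. The higher count was 1 without Tbx5G125R 3, Tbx5G125R 5, Control 2 or Control 3, where the call of Pde2a was lost.

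Of 3 tested pacemaker channel genes 1 was higher (33.3% called), and potassium channel genes were called in both directions. Hcn2, a channel of the pacemaker current, had 421, 428, 402, 404 and 442 normalized counts in Tbx5G125R right atria, against 140.0, 135, 136, 185 and 184 in Control right atria (1.43 ± 0.11, adjusted p 3.59e-06), and the lowest Tbx5G125R library stood above the highest Control library. Hcn4, the main pacemaker channel of the sinoatrial node, had 142, 73.9, 95.6, 34.1 and 109 in Tbx5G125R right atria, against 20, 111, 129, 142 and 90.4 in Control right atria (-0.00 ± 0.50, adjusted p 1). The ranges of Hcn4 overlapped, with Tbx5G125R 4 and Control 1 the lowest libraries. Of 24 voltage-gated potassium channel genes 2 were higher and 2 lower (16.7% called, median 0.08). Kcnf1, a silent subunit that modifies other channels, had 665, 575, 519.6, 701 and 443 in Tbx5G125R right atria, against 155, 191, 163, 209.7 and 95 in Control right atria (1.86 ± 0.19, adjusted p 6.16e-05). Kcnv2, another silent subunit, was lower (-0.85 ± 0.11), and so was Kcna1, a delayed rectifier (-0.97 ± 0.21). Kcna4, a transient outward channel, was called at 0.57 ± 0.15 and lost the call without any library other than Tbx5G125R 1 and Control 1. Of 16 other potassium channel genes 2 were higher (12.5% called). Kcnj15, an inward rectifier, had 43, 87.4, 67.3, 55 and 72.7 in Tbx5G125R right atria, against 8.57, 9.16, 13.9, 10.5 and 7.38 in Control right atria (2.59 ± 0.23, adjusted p 1.81e-05). Kcnn2, a calcium-activated channel, was called at 0.60 ± 0.14 and lost the call without Tbx5G125R 2, 3, 4 or 5 or Control 2 or 3.

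Sodium channel genes divided as well, with 1 of 15 higher and 2 lower (20% called, median -0.09). Scn10a, a channel of sensory neurons whose locus is linked to cardiac conduction in humans, had 105, 176, 131, 114 and 92.2 normalized counts in Tbx5G125R right atria, against 369.6, 211, 224, 266 and 295 in Control right atria (-1.14 ± 0.18, adjusted p 0.0021), with Tbx5G125R 2 the nearest to the Control libraries. Scn4b was called at -0.79 ± 0.18, with an adjusted p of 0.0549 without Tbx5G125R 5, 0.059 without Control 2, 0.0611 without Control 3 and 0.0518 without Control 4. Of 23 chloride channel and transporter genes 2 were higher and 3 lower (21.7% called). Among the lower ones were Slc12a7, a potassium chloride cotransporter (-0.41 ± 0.08), and Clic4 (-0.36 ± 0.07). The lower count was 5 without Control 5. The higher count was 1 without Tbx5G125R 4 or Control 3 and 0 without Tbx5G125R 2, 3 or 5 or Control 4.

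Receptors of glutamate and GABA, which carry excitation and inhibition in the brain, gave 5 higher and 3 lower calls of 20 (40.0% called, median 0.05). Gria3, an AMPA receptor subunit, had 446, 528, 559, 373 and 541 normalized counts in Tbx5G125R right atria, against 144, 172, 147, 172 and 146 in Control right atria (1.63 ± 0.12, adjusted p 2.61e-06). Grin2c, an NMDA receptor subunit, had 673, 853, 725, 633 and 871 in Tbx5G125R right atria, against 394, 419, 389, 408 and 524 in Control right atria (0.81 ± 0.11). Neither gene overlapped between genotypes, and Control 5 was the highest Control library of Grin2c. Gabbr2, a GABA-B receptor subunit, was higher (1.24 ± 0.27). The count of lower members was 1 without Control 2, Control 3 or Control 4, where Gabrr2 (-0.92 ± 0.21) was among those lost, as it also was without Tbx5G125R 4. Of 33 neuronal adhesion and synapse genes 4 were higher and 1 lower (15.2% called, median 0.22). Homer2, a scaffold of glutamate receptors, was the lower one (-0.97 ± 0.10), and the lower count was 2 without Tbx5G125R 1 or Tbx5G125R 4. Of 29 semaphorins, plexins and neuropilins 3 were higher (10.3% called), and 1 more was lower without Tbx5G125R 1. Beside Sema3a these were Sema6c, a transmembrane semaphorin (1.32 ± 0.13), and Plxna4, a receptor of class 3 semaphorins. Plxna4 had 6356, 6433, 5698, 5527 and 6234 in Tbx5G125R right atria, against 3929, 3208, 3375, 3850.3 and 4425 in Control right atria (0.69 ± 0.09, adjusted p 0.000316). The summed level of 14 neuron and glia markers was 905 ± 56.6 normalized counts in Tbx5G125R right atria and 1063 ± 219 in Control right atria (SD, n = 5 each, exact permutation p = 0.19). None of its 5 tested markers was called by limma, DESeq2 or edgeR, and 1 was lower at an unadjusted p under 0.05.

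**Figure D3:**
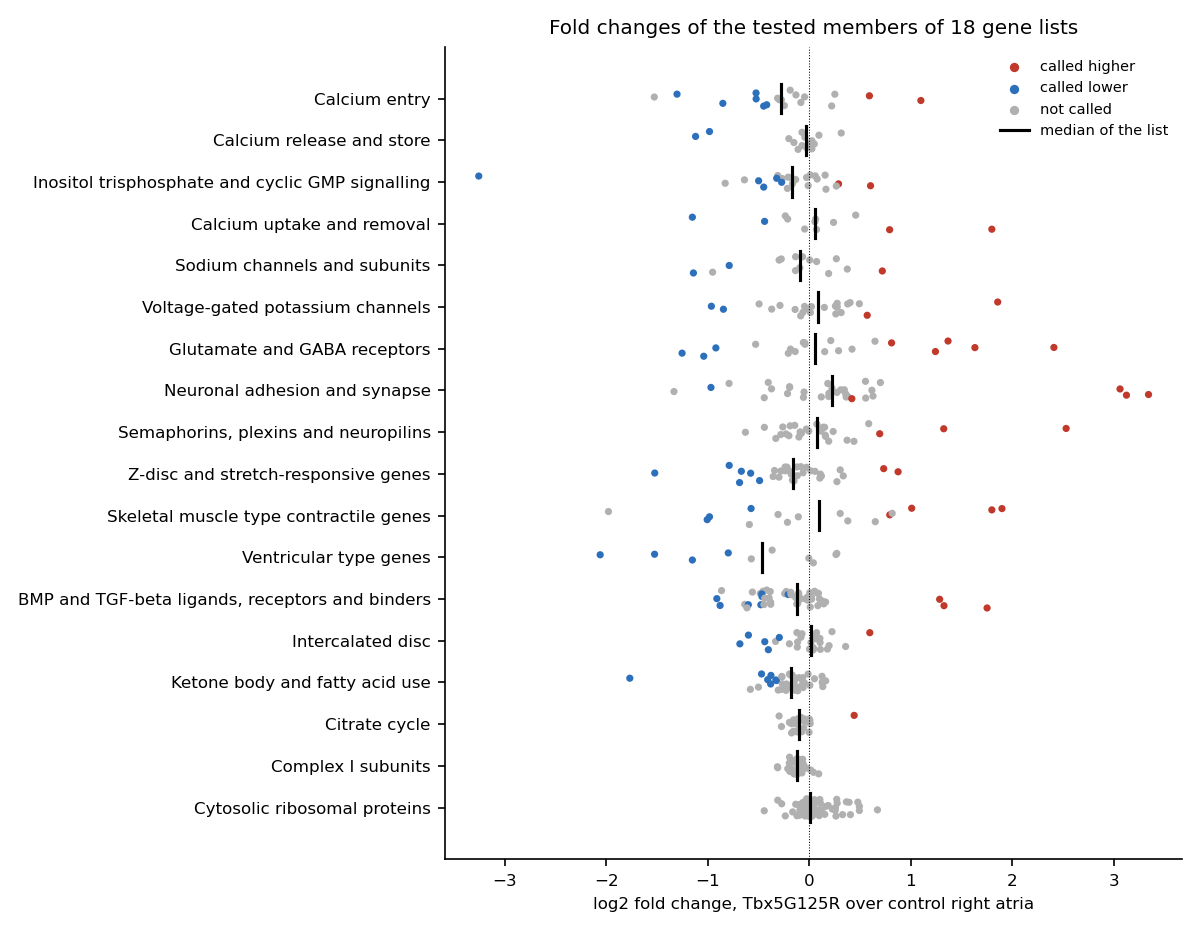
Log2 fold changes of Tbx5G125R over Control right atria (x axis) of the tested members of 18 gene lists (rows), 1 point a gene, with higher calls in red, lower calls in blue, other members in grey and a black tick at the median of the list. The members of most lists lie on both sides of 0, with the median of calcium entry at -0.28 and that of ventricular type genes at -0.47.

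Genes of the sarcomere, the Z-disc and of other muscle types changed in both directions. Of 32 Z-disc and stretch-responsive genes 2 were higher and 6 lower (25.0% called, median -0.16), and all 8 calls held without any 1 library. Fhl1 and Fhl2, related LIM proteins of the titin I-band, were both higher. Fhl1 had 5194, 5473, 5818, 4609.7 and 5765 normalized counts in Tbx5G125R right atria, against 2930.2, 3176, 3354, 2508 and 2704 in Control right atria (0.87 ± 0.09, adjusted p 5.75e-05). The lower members were Ankrd23, Pdlim3 (-0.79 ± 0.09) and Pdlim5 (-0.49 ± 0.09), which join PDZ and LIM domains, Murc, a caveolar protein (-0.67 ± 0.11), and the small heat shock proteins Hspb6 (-0.58 ± 0.11) and Hspb1 (-0.69 ± 0.14). Of 16 skeletal muscle type contractile genes 4 were higher and 3 lower (43.8% called, median 0.10), and all 7 calls likewise held. Tnni2, the fast skeletal troponin I, had 141, 134, 131, 134 and 109.9 in Tbx5G125R right atria, against 41.9, 37.5, 26.5, 61.1 and 17.5 in Control right atria (1.90 ± 0.26). Lmod3, a nucleator of thin filaments, had 428, 540.0, 558, 611 and 484 in Tbx5G125R right atria, against 994, 1134, 979, 1094 and 1038 in Control right atria (-1.01 ± 0.09, adjusted p 1.98e-05). Myl1, a fast skeletal light chain, was higher (0.79 ± 0.12) and Mybpc2, a fast skeletal myosin binding protein, was lower (-0.57 ± 0.11).

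Of 10 tested genes typical of ventricular muscle 4 were lower (40.0% called, median -0.47). Myl3, the ventricular essential light chain, had 175, 108, 166, 101 and 199 normalized counts in Tbx5G125R right atria, against 449, 284, 556, 347 and 520.2 in Control right atria (-1.53 ± 0.22, adjusted p 0.000972). Lbh, a transcription cofactor, was lower (-0.80 ± 0.15), and Pln is the other robust one. Myl2 was called at -2.06 ± 0.51 and lost the call without Tbx5G125R 2, 3, 4 or 5 or Control 1 or 3. Without Control 5 the count of higher members was 1. The summed level of this list was 85336 ± 9407 normalized counts in Tbx5G125R right atria and 112038 ± 12558 in Control right atria (SD, n = 5 each). The list was chosen with the change of Pln known, so this difference is a description. Without the 4 called genes it was 65792 ± 7960 in Tbx5G125R right atria and 68571 ± 8153 in Control right atria. Of 22 genes typical of atrial muscle 2 were higher and 2 lower (18.2% called, median -0.04). Tmem163 was higher (0.53 ± 0.11) and Gja5 was the other higher one, lost without Control 2. Clu and Bmp10 were the lower ones, and 1 lower gene was left without Tbx5G125R 3, 4 or 5 or Control 2 or 3. Of 27 intercalated disc genes 1 was higher and 5 lower (22.2% called, median 0.02). Popdc3, a membrane protein that binds cyclic AMP, had 199.9, 225, 212, 200.1 and 212 in Tbx5G125R right atria, against 260.1, 369, 332, 328 and 312 in Control right atria (-0.60 ± 0.10), and Pkp2, a plakophilin of desmosomes, was lower as well (-0.44 ± 0.08). The lower count was 3 without Tbx5G125R 1 or 3 or Control 3, 4 or 5, and the higher count was 3 without Tbx5G125R 1 and 0 without Control 2.

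Of 39 actin scaffold and smooth muscle type genes 3 were higher and 3 lower (15.4% called, median -0.14), and 5 were lower without Control 1 or Control 5. Iqgap3, a relative of Iqgap2, had 99.9, 208, 164, 159.9 and 178 normalized counts in Tbx5G125R right atria, against 53.3, 44.9, 55.6, 51.6 and 67.3 in Control right atria (1.53 ± 0.18, adjusted p 0.000202). Acta2, the smooth muscle actin, was called at -0.86 ± 0.23, with overlapping genotypes, and its call was lost without any library other than Control 1 and Control 5. The 12 markers of mural and smooth muscle cells summed to 16651 ± 2279 in Tbx5G125R right atria and 18127 ± 2741 in Control right atria (SD, n = 5 each, exact permutation p = 0.373). Beside Cnn1, which fell, Cspg4, a proteoglycan of pericytes, was called at 0.51 ± 0.12, with an adjusted p of 0.0567 without Tbx5G125R 3 and 0.0504 without Tbx5G125R 4.

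Ligands of the BMP and TGF-beta family, their receptors and their binders gave 3 higher and 7 lower calls of 52 (19.2% called, median -0.12). Bmp3, a ligand that opposes other BMPs, had 603, 685, 802, 767 and 698 normalized counts in Tbx5G125R right atria, against 172, 193, 197, 262 and 233 in Control right atria (1.75 ± 0.12, adjusted p 1.33e-06). Bmpr1b, a receptor of BMPs, had 63.9, 48.2, 50.5, 49.8 and 41.6 in Tbx5G125R right atria, against 26.7, 20.1, 16.4, 19 and 19.4 in Control right atria (1.28 ± 0.18). Ltbp2, a matrix protein related to those that hold latent TGF-beta, was higher as well (1.33 ± 0.14). All of these higher calls held without any 1 library. Of the lower members only the ligand Tgfb3 (-0.47 ± 0.10) and the BMP antagonist Nbl1 (-0.91 ± 0.20) held in the same way, and both had overlapping genotypes. The lower count was 3 without Tbx5G125R 2 or Control 2, 4 without Tbx5G125R 3, 4 or 5, and 2 without Control 3.

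Among 57 genes of secreted factors and hormones 2 were higher and 5 lower (12.3% called, median -0.03). Nrg1, the neuregulin that signals to ErbB receptors of muscle, had 65.1, 60.5, 62, 72.5 and 53.2 normalized counts in Tbx5G125R right atria, against 15.2, 9.16, 18.9, 10.5 and 6.46 in Control right atria (2.36 ± 0.25, adjusted p 8.08e-05). Fgf9, a fibroblast growth factor, had 69.7, 87.4, 81.4, 88.2 and 78.9 in Tbx5G125R right atria, against 32.4, 52.2, 41.7, 39 and 30.4 in Control right atria (1.05 ± 0.16). The lower members included Ptgds, Wisp1, Hamp2 and Pdgfc (-0.62 ± 0.12). Without Tbx5G125R 1 the counts were 4 higher and 8 lower. Of 42 genes of aminergic and purinergic signalling 4 were higher and 2 lower (14.3% called, median 0.04). Maob, a monoamine oxidase, had 3148, 3973, 3786, 4036 and 3639 in Tbx5G125R right atria, against 1776, 1738, 1821, 1990.5 and 1914 in Control right atria (2.01-fold higher, adjusted p 2.92e-06), beside the increase of Tph1. Rgs6, which shortens muscarinic signals in the sinoatrial node and atrium, had 1634, 1952, 1796, 1893 and 1839 in Tbx5G125R right atria, against 2472, 2329, 2825, 2934 and 2779 in Control right atria (-0.55 ± 0.08, adjusted p 0.000646). Adcy9, an adenylate cyclase, was higher (0.42 ± 0.07). Of 49 stress signalling kinases and phosphatases 2 were higher and 3 lower (10.2% called). Dusp4, a phosphatase of MAP kinases, was higher (0.90 ± 0.14). The higher count was 1 without Tbx5G125R 1, 4 or 5 or Control 2, 3 or 4 and 4 without Control 5.

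In metabolism the calls were mostly lower. Of 45 genes of ketone body and fatty acid use 7 were lower (15.6% called, beside 6.23% of all tested genes), and 38 had a negative log2 fold change (median -0.19). Oxct1, the enzyme that activates acetoacetate for use as fuel, had 9651, 11702, 10281, 10892 and 10219 normalized counts in Tbx5G125R right atria, against 12229.7, 13463, 13678, 14814 and 14521 in Control right atria (-0.38 ± 0.08, adjusted p 0.00884). Together with Bdh1 it covers the first steps by which a heart burns 3-hydroxybutyrate. Hadhb, of the mitochondrial trifunctional protein, was lower as well (-0.33 ± 0.07). The lower count was 4 without Tbx5G125R 4 or Control 3 and 11 without Control 1. Of 25 citrate cycle and pyruvate dehydrogenase genes only Pdhx, a core subunit of pyruvate dehydrogenase, was called (4.0%), and it was higher (0.44 ± 0.08), while 22 members had a negative log2 fold change, and 2 of them were lower without Control 1. Of 31 glycolysis and glycogen genes 2 were lower (6.45% called, near the share of all tested genes), among them Slc2a1, the basal glucose transporter. Slc2a1 had 202, 169, 199, 254 and 245 in Tbx5G125R right atria, against 368, 451, 417, 353 and 390.1 in Control right atria (-0.89 ± 0.12, adjusted p 0.000405). Chac1, which degrades glutathione and is induced in the integrated stress response, had 16.3, 5.6, 8.85, 6.99 and 7.97 in Tbx5G125R right atria, against 59.1, 79.7, 58.1, 71.7 and 53.5 in Control right atria (6.76-fold lower, adjusted p 2.17e-05). It was the largest of 3 decreases among 31 stress response genes (9.68% called), of which 1 was left without Tbx5G125R 2 or Control 2.

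Subunits of large assemblies gave 0 calls by limma in the complete set of libraries. This held for 76 cytosolic ribosomal proteins (median 0.01), 75 mitochondrial ribosomal proteins (-0.11, with 8 positive values), 46 proteasome subunits (-0.08) and 35 subunits of complex I (-0.12, with 3 positive values). Subunits of complexes III, IV and V had medians of -0.20, -0.12 and -0.08. Of all tested genes 47.4% had a positive log2 fold change. The median of tested genes was -0.04 at means of 1000 to 5000 normalized counts and -0.08 at means of at least 5000. At an unadjusted p under 0.05 0 of the cytosolic ribosomal proteins passed, while 13 mitochondrial ribosomal proteins, 5 proteasome subunits and 3, 4, 1 and 2 subunits of complexes I, III, IV and V were lower. DESeq2 on whole reads called 1 lower subunit in each of complexes I, IV and V, and edgeR called 0. Without Control 1, 3 mitochondrial ribosomal proteins and 1 subunit of complex IV were lower, and without Tbx5G125R 2 or Control 2, 1 subunit of complex V was.

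Of 247 solute carriers 19 were higher and 12 lower (12.6% called, beside 6.23% of all tested genes). Slc7a1, a carrier of arginine and other cationic amino acids, had 2188, 2826, 2592, 1990.3 and 2591 normalized counts in Tbx5G125R right atria, against 859, 961, 837, 910.4 and 1328 in Control right atria (1.32 ± 0.13, adjusted p 3.59e-05). Slc7a5, which carries large neutral amino acids, had 125, 142, 116, 133 and 136 in Tbx5G125R right atria, against 211, 254, 236, 247 and 228 in Control right atria (-0.85 ± 0.09, adjusted p 8.08e-05). Slc16a7, a carrier of pyruvate and other monocarboxylates, was lower (-0.98 ± 0.10) and Slc39a12, a zinc importer, was higher (1.68 ± 0.14). The lowest adjusted p of all genes belonged to Wdr3, a protein of ribosome assembly that lies outside the rule for named genes and was chosen after its values were seen. Wdr3 had 2049.7, 2030.1, 2150.1, 2003 and 2126 in Tbx5G125R right atria, against 551, 601, 543, 557 and 552 in Control right atria (1.88 ± 0.05, adjusted p 5.51e-10), and the libraries within each genotype were close to one another.

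The identity of the tissue was checked by markers. The 11 markers of cardiomyocytes, which dominate the libraries, summed to 2787550 ± 553590 normalized counts in Tbx5G125R right atria and 2743440 ± 267873 in Control right atria (SD, n = 5 each, exact permutation p = 0.889). None of them was called by limma, DESeq2 or edgeR, and 0 had an unadjusted p under 0.05. The 16 markers of the sinoatrial node summed to 22873 to 28072 in Tbx5G125R right atria and to 31512 to 37630 in Control right atria without overlap, and 4 of 15 tested were lower (26.7% called). Igfbp5, which many other cells express, carries most of this sum. It had 19415, 12484, 13110.3, 12689 and 16159 in Tbx5G125R right atria, against 25311, 21101, 22880.2, 20045 and 25683 in Control right atria. Without Igfbp5 the sum was 9956 ± 756 in Tbx5G125R right atria and 11446 ± 761 in Control right atria, and without the called genes Igfbp5, Rgs6, Cacna1d and Lbh it was 7460 ± 602 in Tbx5G125R right atria and 7592 ± 721 in Control right atria. The part of the node content in the changes of Cacna1d, Rgs6 and the calcium genes was not tested.

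Fibroblast markers summed to 178984 ± 42512 normalized counts in Tbx5G125R right atria and 234835 ± 67767 in Control right atria (SD, n = 5 each, exact permutation p = 0.159), and all 13 had a negative log2 fold change. Postn, the matricellular protein periostin, was the called one, with 726, 804, 1363, 1274 and 832 in Tbx5G125R right atria, against 2827, 2338, 3039, 1272 and 1835 in Control right atria (-1.16 ± 0.24, adjusted p 0.011), and 2 were called without Tbx5G125R 1 or Control 5. Mesothelial markers summed to 4249 to 15460 in Tbx5G125R right atria and to 8805 to 18972 in Control right atria (exact permutation p = 0.27), with all 10 negative. Of 12 endothelial markers Kdr, the main VEGF receptor, was higher (0.60 ± 0.07, adjusted p 9.49e-05), and of 7 endocardial markers Tmem100 was lower (-0.81 ± 0.13), with 2 lower without Tbx5G125R 1 or Control 4. Macrophage markers summed to 8576 ± 1149 in Tbx5G125R right atria and 10280 ± 1814 in Control right atria (exact permutation p = 0.135), with 10 of 11 tested markers negative (median -0.36). Of these markers, 7 were lower at an unadjusted p under 0.05, and 0 were called by limma, DESeq2 or edgeR. The 10 T cell markers summed to 175 to 328 in Tbx5G125R right atria and to 90.7 to 133 in Control right atria without overlap. Trac held most of that difference, with 164, 133, 125, 158 and 137 in Tbx5G125R right atria, against 38.1, 22, 17.7, 44.3 and 31.4 in Control right atria, and the other 9 summed to 47.2 to 164 in Tbx5G125R right atria and 56.9 to 101 in Control right atria.

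**Figure D4:**
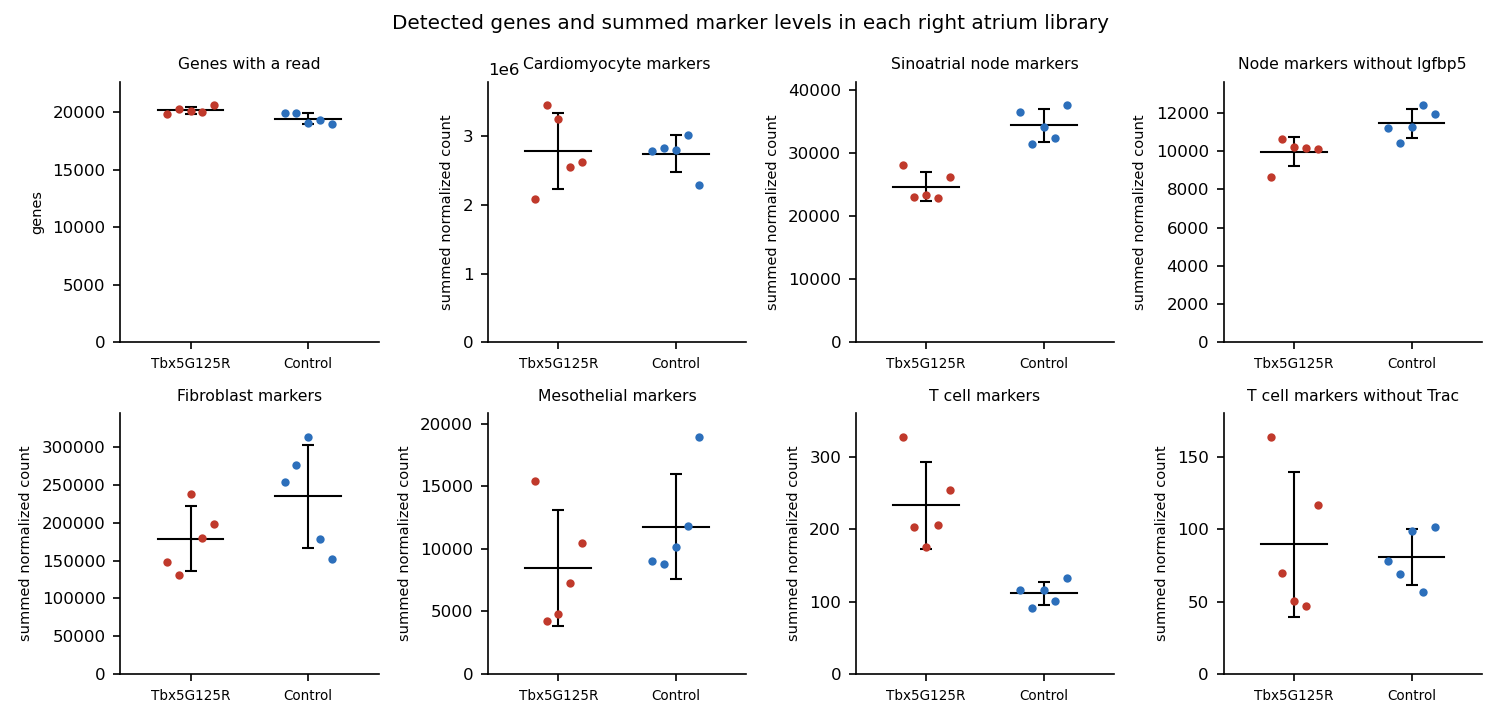
Number of genes with a read and summed normalized counts of marker lists (y axes, from 0) in each right atrium library, with Tbx5G125R in red on the left and Control in blue on the right; lines are the mean and bars the SD of 5 libraries. The sums of the sinoatrial node and T cell lists lie apart between genotypes, and without Trac the T cell sums overlap.

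Called genes were sometimes neighbours in the genome. Of 14215 pairs of adjacent tested genes, both were called in 98, of which 43 were higher together, 37 lower together and 18 opposite. The share of single genes called, 6.23%, is not a share of pairs and cannot be set against this count directly. No test of the number of pairs was made. Reads were not assigned by strand, so that overlapping genes cannot be told apart, and among the pairs without overlap 64 moved in 1 direction and 17 in opposite directions. Lxn and Rarres1, on the same strand of chromosome 3, lie 15046 bases apart and were both higher. Popdc3 and Bves, related genes on chromosome 10, lie 17320 bases apart and were both lower (-0.60 ± 0.10 and -0.40 ± 0.11), although the call of Bves was lost without Tbx5G125R 1, 2, 3 or 4 or Control 2, 3, 4 or 5. Tmx4 and Plcb1 on chromosome 2 lie 141922 bases apart and were both higher (1.01 ± 0.08 and 0.60 ± 0.13). F2rl2 (1.95 ± 0.43), whose gene overlaps Iqgap2 on the other strand, cannot be told apart from it. Around Tbx5 itself, 1 of the 13 tested genes within 1 Mb was called, a lower one.

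The left atria of the same genotypes gave a second measurement of these genes. Reads of the mitochondrial rRNA genes took 19.5% to 46.7% of the left libraries, against 7.28% to 15.7% of the right ones. The part of this difference in the number of left calls was not tested. Of the 442 genes higher in Tbx5G125R right atria 395 were tested in left atria, and 362 of them (91.6%) changed with the same sign there. Of the 448 lower genes 409 were tested, and 346 (84.6%) had the same sign, beside 61.9% of the 12537 genes tested in both atria. In left atria limma called 158 of 13192 genes (1.2%), 100 of them higher (0.758%) and 58 lower (0.44%). Higher in both atria were 83 genes, which are 18.8% of the right and 83.0% of the left calls. Lower in both were 41 genes, which are 9.15% of the right and 70.7% of the left calls. The count called in both, 124, was 80 without left Tbx5G125R 2, 74 without left Tbx5G125R 3, 75 without left Tbx5G125R 5, 63 without left Control 2 and 67 without left Control 3, and with a replicate block in both atria it was 265. The labels do not say whether left and right libraries share animals.

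**Figure D5:**
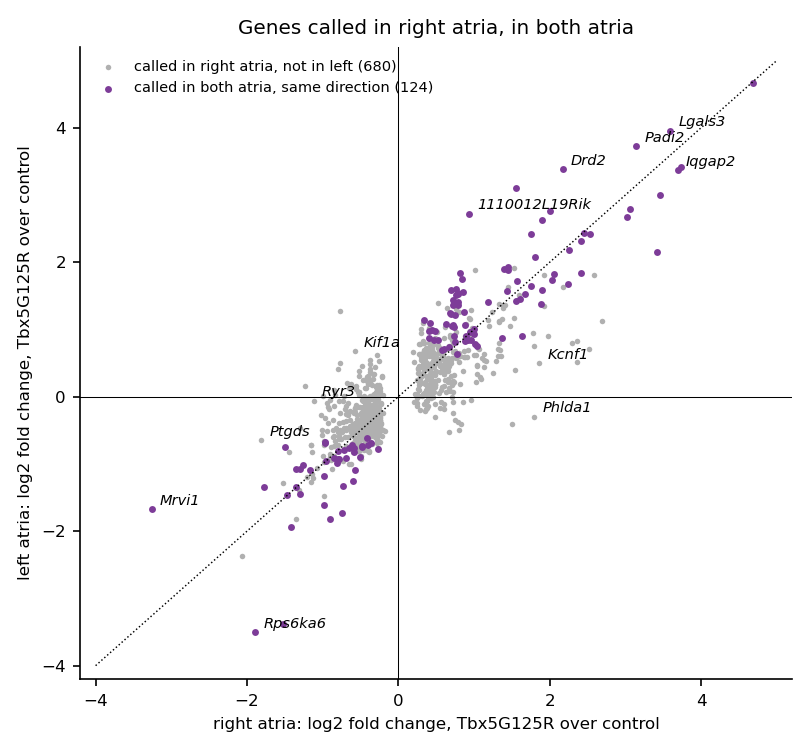
Log2 fold change of Tbx5G125R over Control in right atria (x axis) and in left atria (y axis) of the genes called in right atria and tested in both, with the 124 genes called in both in purple, the other 680 in grey and a dotted line where both changes are equal. Iqgap2, Lgals3 and Padi2 lie close to the line, and Mrvi1 lies above it, with a smaller decrease in left atria.

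Several genes rose at least 2-fold in both atria. Iqgap2 had a log2 fold change of 3.69 ± 0.12 in right and 3.37 ± 0.15 in left atria, Lgals3 of 3.59 ± 0.14 in right and 3.96 ± 0.32 in left atria, and Bmp3 of 1.75 ± 0.12 in right and 1.65 ± 0.18 in left atria. Others were called only on the right, without a difference that passed the test, such as Kcnf1 (1.86 ± 0.19 in right and 0.50 ± 0.31 in left atria), Ryr3 (-1.12 ± 0.21 in right and -0.06 ± 0.20 in left atria) and Tnnc1 (-0.94 ± 0.09 in right and -0.10 ± 0.24 in left atria). The test of the difference itself, left change minus right change, called 8 of 12537 genes (0.0638%). Mrvi1 fell by 3.26 ± 0.15 on the log2 scale in right and by 1.67 ± 0.23 in left atria, a difference of 1.58 ± 0.29 (adjusted p 0.0321). Phlda1 rose by 1.80 ± 0.29 in right atria and had -0.30 ± 0.24 in left atria, a difference of -2.09 ± 0.37 (adjusted p 0.0254). Fam107b and Tmtc2 rose by 0.66 ± 0.08 and 0.78 ± 0.09 in right atria, against -0.53 ± 0.20 and -0.38 ± 0.17 in left atria, and Kif1a, a motor of synaptic vesicles, fell by 0.57 ± 0.11 in right atria, against 0.68 ± 0.26 in left atria. 1110012L19Rik rose by 0.93 ± 0.14 in right and by 2.72 ± 0.22 in left atria. Aqp4, a water channel, and Eya1 were not called in right atria (-0.42 ± 0.21 and 0.09 ± 0.08) and fell by 2.57 ± 0.27 and 1.28 ± 0.24 in left atria. Each of these 8 differences lost its call with at least 5 of the 20 libraries left out 1 at a time, and the count was 0 without right Tbx5G125R 3, right Tbx5G125R 5, right Control 4, left Tbx5G125R 5 or left Control 2.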

How the data were processed

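RNA from whole atria was sequenced after TruSeq library preparation, which does not keep strand. The submitters' processing notes name STAR, DESeq2 and mm10, with versions not given in the sources used here. For each atrium the authors deposited a table of signal values, in which the reads of a gene are divided by a size factor of the library. For the right atrium there were 40924 entries, 6275 of them without values and 1203 repeating a gene with identical values, which left 33446 genes. Fold changes and p-values that the authors computed themselves, with their standard errors, also stand in the deposited files and were not used. All nonzero right atrium values (100%) were whole multiples of 1 step within 0.01 reads, so whole reads could be recovered. Size factors differ between the tables of the atria, so levels were compared within a table only.

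Genes that averaged 10 or more normalized counts were tested with limma 3.58.1 (R 4.3.3) on log2 of the value plus 1, with a trend of the variance and p-values adjusted after Benjamini and Hochberg, 5 against 5 libraries within 1 atrium. The study's own DESeq2 test needs counts, so DESeq2 1.42.0 and edgeR 4.0.16 were run as alternatives on the recovered reads, where they called 600 and 469 genes higher and 666 and 401 lower. A fold change is on the log2(value + 1) scale, Tbx5G125R over Control, with the SE of the model, and it understates changes of low genes. The difference between atria was an interaction in all 20 libraries, with the spread of each gene shared by both atria. Fitted alone, the SE of a gene could differ between atria, as for Eya1 (0.08 in right and 0.24 in left atria). Sums of markers were compared by exact two-sided permutation tests. The code was tested on simulated data. The labels name no animals, while the study reports 5 control and 5 heterozygous animals for the right atria. The p-values measure the spread between libraries, which may be partly technical.

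Named genes are Tbx5, the 20 largest increases and decreases among called genes that averaged 50 or more normalized counts and did not overlap between genotypes (predicted and clone names passed over), the 10 largest differences in counts in each direction, up to 6 called members of each list by lowest adjusted p, the T-box genes, the members of lists of up to 4 genes and the 8 differences between atria; the text names a selection. Wdr3 and F2rl2 lie outside the rule. Some genes that the rule names are not reported here. The members and lists were chosen with earlier results of these data known. Gene positions come from the GENCODE M21 reference and promoter sequences from RefSeq (GRCm38.p6). The alternatives used pseudocounts of 0.5 and 5, all genes or only those averaging 50 or more, TMM and quantile scaling, a robust fit, a replicate block, a fit of 4 groups, GC corrections added after the data were seen, and leaving out each library.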

Additional observations from a re-analysis of the deposited data

Results flagged for a closer look

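A library stood apart from the other 4 of its genotype in 23 of 402 sets of 5 values examined, where chance gives about 1 in 20. Tbx5G125R 5 held 114 normalized counts of Tph1 (86.3 to 93.8 in the others), 235 of Aqp4 (122 to 151) and 277 of Mybpc2 (356 to 385). Tbx5G125R 1 was low for Serinc3 (19655, others 22993 to 23445), Zfp280d (1753, others 1966 to 2023) and Kcna4 (273, others 409 to 455), and its sum of ventricular type genes was 68858 (others 86740 to 91389). Tbx5G125R 2 was high for Gja5 (13322, others 10000 to 10501) and Slc39a12 (180.4, others 133 to 143) and low for Cdh4 (5.60, others 10.5 to 12.4). Tbx5G125R 3 was high for Mapk10 (222, others 163 to 169), and Tbx5G125R 4 was high for Casq1 (823, others 444 to 538).

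Control 2 was low for Casq1 (831, others 1113 to 1227) and high for Gm10800 (3430.4, others 652 to 1397) and Wdr3 (601, others 543 to 557). Control 4 was high for Nfasc (67.4, others 21.5 to 32.4), Rab3b (157, others 110 to 121) and Ankrd23 (1895, others 1236 to 1391). Control 5 was high for Grin2c (524, others 389 to 419), Slc7a1 (1328, others 837 to 961) and Fam107b (364, others 329 to 338). Red blood cell markers summed to 9178 in Tbx5G125R 5 (others 1034 to 3198) and to 11249 in Control 5 (others 2070 to 3802).

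The change differed between atria by the interaction test in 8 genes. Left change minus right change was -2.15 for Aqp4, -2.09 for Phlda1, -1.37 for Eya1, -1.19 for Fam107b, -1.16 for Tmtc2, 1.25 for Kif1a, 1.58 for Mrvi1 and 1.80 for 1110012L19Rik on the log2 scale, with adjusted p of 0.0215 to 0.035, and the highest adjusted p with 1 library left out was 0.0695 to 0.11.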

How the results depend on the processing

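The counts of 442 higher and 448 lower genes stayed within 1.5 times under other pseudocounts, filters and scalings, a robust fit, GC corrections added after the data were seen, and DESeq2 and edgeR on recovered reads. A fit of all 4 groups with a shared spread called 180 higher and 112 lower genes, and the libraries left out 1 at a time gave 311 to 517 higher and 279 to 571 lower genes. The genes called in both atria (124) numbered 63 to 181 and the differences between atria (8) numbered 0 to 11 with 1 library left out. Same-numbered libraries were not taken as pairs in either atrium. The reason was that in right atria the correlations of their deviations from the group means (-0.029 to 0.268) were not all over 0.1. Right libraries 3 and 5 of both genotypes and right Tbx5G125R 1 nevertheless lay closest to their own number. Left atria were not checked in this way, so pairing there was not tested. The replicate block gave 441 higher and 444 lower genes and 265 called in both atria, and the cause was not tested. Of 163 called genes examined by name, DESeq2 kept 163, edgeR 162, the block 156 and the fit of 4 groups 98. Leaving out each library in turn kept 131 of them throughout, and 0 reversed under any alternative. Tbx5 and Hcn4, neither of them called, changed sign. Tbx5 in right atria ran between -0.0399 and 0.09405 with 1 library left out. Hcn4 was 0.001753 at a pseudocount of 0.5, 0.003825 after quantile scaling, 0.04792 with GC content as a covariate and 0.008994 with the GC trend removed, and it ran between -0.4968 and 0.3112 with 1 library left out. Depth limits genes with few counts, of which 4.01% were called at means of 10 to 50, and 5 libraries of a genotype limit the smallest permutation p to 0.00794. Without Igfbp5, Trac or the called ventricular genes the sums of those markers moved, as the report gives.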
